A study of Homo sapiens with 12 samples.

Results

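The lysosomal cathepsins CTSA, CTSB, CTSC, CTSD, CTSH, CTSK, CTSS and CTSZ and the protease inhibitor cystatin C (CST3) were examined across 4 synthetic matrix conditions. These 9 genes were taken by symbol from the 23368 genes of the count table, and all 9 passed the filter on low counts in every comparison. MDA-MB-231 (ER− basal) and T47D (ER+ luminal A), both established human breast adenocarcinoma cell lines, were encapsulated as single cells in poly(ethylene glycol) hydrogels with a peptide crosslinker that cells can cleave. The pendant peptide was GFOGER, a collagen mimic, or IKVAV, a laminin mimic, and RNA was taken on day 3. In all 4 conditions the gels were dissolved with collagenase and 3 gels were pooled for each replicate. Counts were available for 3 libraries of MDA-MB-231 with GFOGER, 2 with IKVAV, and 3 of T47D with each peptide. Replicate 3 of MDA-MB-231 with IKVAV, set aside by the submitters, was not analysed here.

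Cathepsins are proteases that are made as inactive precursors, are carried to the acidic lysosome and are activated there by cleavage. CTSD is an aspartic protease and CTSA a serine carboxypeptidase, while the other 6 are cysteine proteases of the papain family. Cystatin C is secreted and binds several cysteine cathepsins tightly, and it does not inhibit CTSD or CTSA. Its binding to each of the 6 was not measured here. In breast tumours, secreted cathepsins are studied for cleavage of the extracellular matrix, and CTSD is known as a gene that estrogen induces in ER+ breast cancer cells. The RNA counts here measure neither protein nor enzyme activity. In bulk RNA, fewer cells with a transcript and less of it in each cell cannot be told apart.

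On hg19, the table places CTSD at chr11:1773982-1785222 (9 exons in the GENCODE canonical transcript) and CTSA at chr20:44519591-44527458 (15 exons). CTSZ lies at chr20:57570242-57582309 (6 exons), CTSC at chr11:88026760-88070941 (7 exons) and CTSH at chr15:79214092-79237420 (12 exons). CTSS, at chr1:150702672-150738433, and CTSK, at chr1:150768684-150780917, are neighbours with 8 exons each. CST3 lies at chr20:23614294-23618574 (3 exons). The values are reads over the exons of each gene as the authors counted them. CTSD lies within the span of MOB2, which itself had 127 to 316 counts per library, and the ends of CTSA overlap NEURL2 (18 to 49 counts) and PLTP (8 to 101 counts), all far below the counts of CTSD and CTSA.

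The promoters of CTSA, CTSD and CST3 are shown because these genes carried the largest differences between the cell lines in the response to the peptides. The 150 bases before the annotated start of each gene are from RefSeq (GRCh38.p14), 5′ to 3′ on the strand of the gene. They are chr20:45891185-45891334 (+) for CTSA, chr11:1763928-1764077 (−) for CTSD and chr20:23637956-23638105 (−) for CST3. Capitals mark the E-box CACGTG and the GC box GGGCGG on either strand.
CTSA: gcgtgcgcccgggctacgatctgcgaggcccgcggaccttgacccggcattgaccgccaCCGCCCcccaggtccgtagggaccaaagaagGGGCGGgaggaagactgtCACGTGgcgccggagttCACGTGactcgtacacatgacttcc
CTSD: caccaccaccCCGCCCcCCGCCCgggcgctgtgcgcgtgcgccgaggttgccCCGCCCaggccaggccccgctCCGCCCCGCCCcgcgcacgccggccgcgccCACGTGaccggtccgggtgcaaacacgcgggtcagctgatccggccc
CST3: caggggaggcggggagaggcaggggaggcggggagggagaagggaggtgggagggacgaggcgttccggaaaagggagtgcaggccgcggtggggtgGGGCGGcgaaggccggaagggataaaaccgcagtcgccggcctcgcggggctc
The E-box, the core of the element that transcription factors of the MiT/TFE family bind in lysosomal genes, was found in CTSA (42 and 25 bases before the start) and in CTSD (47 bases before the start). Of the 6 members with a promoter entry (CTSA, CTSC, CTSD, CTSH, CTSZ and CST3), 2 held CACGTG in the 300 bases around the start, against 7.43% of 27305 promoters. The longer TCACGTG, which overlaps it, was in the same 2 members and in 3.82% of promoters. GGGCGG was in 6 of the 6 and in 44.6% of promoters, TATAAA in 0 and 12%, and the palindromic consensus estrogen response element in 0 and 0.0659%. Both strands were searched, and a match describes letters in this window and not a bound site.

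Total counts per library were between 14337035 and 18449108, and 3 counts came to 0.209 cpm (the count scaled to a common TMM-adjusted library size) in the smallest library. The cell line labels matched their markers. VIM, the mesenchymal intermediate filament, was at 1436 to 2419 cpm in MDA-MB-231 and 3.72 to 5.29 cpm in T47D, CDH1 (E-cadherin) at 2.29 to 5.51 and 997 to 1050 cpm, and ESR1 (estrogen receptor) at 0.519 to 0.798 and 257 to 317 cpm. Libraries of a condition did not all lie equally close together. Replicate 3 of MDA-MB-231 with GFOGER had a chi-square per gene of 15.5 and 17.5 against replicates 1 and 2, which differed by 2.46, and replicate 3 of T47D with IKVAV had 16.9 and 16 where the other pair had 5.26. Results are therefore also given without these libraries. The library totals that the deposited RPKM values imply fell into a higher set of 6 libraries and a lower set of 5. The lower set was MDA-MB-231 with IKVAV replicate 1, T47D with GFOGER replicates 1 to 3 and T47D with IKVAV replicate 3. This split was fitted as a term in an alternative. Within each line the GFOGER libraries all fell in the same set. In a fit of a single line, this term therefore left a single IKVAV library to compare them with. That library was replicate 2 in MDA-MB-231 and replicate 3 in T47D. The GFOGER libraries of MDA-MB-231 were in the higher set and those of T47D in the lower. The difference between the lines with GFOGER therefore coincided with the split and cannot be told apart from it. With the term, the estimate of this difference rests on how the sets differed among the IKVAV libraries alone. Nothing in the labels says that replicates came from separate experiments, so p-values measure the spread between these samples.

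Levels per length were compared as RPKM computed from the counts with trimmed mean of M-values (TMM) library sizes. CTSD was the highest of the 9 genes in all 4 conditions, with means of 887 ± 121 RPKM (SD, n = 3) in MDA-MB-231 with GFOGER, 1696 ± 19.1 (n = 2) with IKVAV, 1418 ± 110 (n = 3) in T47D with GFOGER and 1404 ± 156 (n = 3) with IKVAV. By count it was the 16th to 26th most abundant gene of the table in MDA-MB-231 with GFOGER, the 3rd with IKVAV, and between the 5th and the 8th in T47D. In MDA-MB-231 the order below CTSD was CST3, CTSZ, CTSA, CTSB, CTSH, CTSS, CTSC and CTSK with both peptides, and CTSH and CTSS were the only neighbours whose libraries overlapped. In T47D with GFOGER, CTSA (185 RPKM) and then CST3 (158 RPKM) followed CTSD, and with IKVAV these were at 133 and 156 RPKM with overlapping libraries. CTSB and CTSZ also overlapped in T47D, at 84.0 and 80.3 RPKM with GFOGER and at 75.5 and 82.5 RPKM with IKVAV. CTSK and CTSS ended the order in T47D, at 1.17 and 0.482 RPKM with GFOGER. CTSD made up 62.0% of the summed RPKM of the 8 cathepsins in MDA-MB-231 with GFOGER, 68.7% with IKVAV, 79.0% in T47D with GFOGER and 81.6% with IKVAV.

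**Figure D1:**
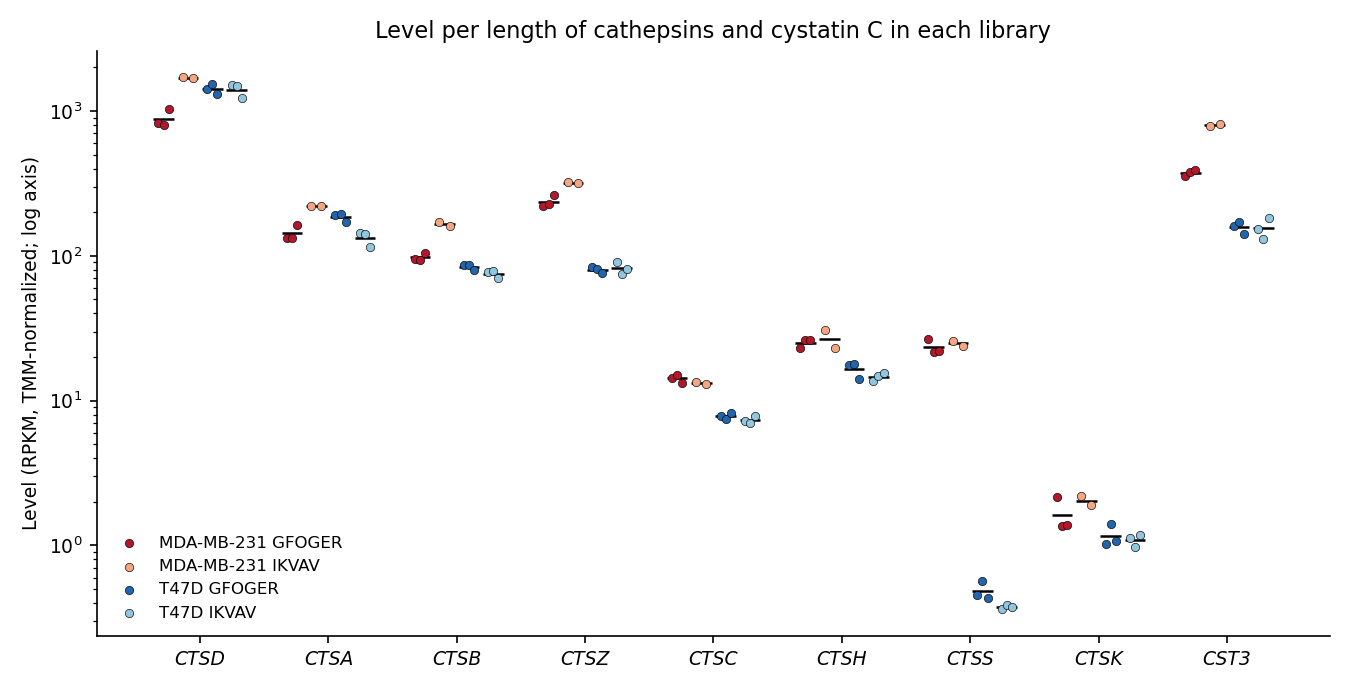
Level per length (RPKM with TMM library sizes, log axis) of the 9 genes in each of the 11 libraries, with points for libraries and bars for condition means. CTSD was highest in every condition, at 805 to 1709 RPKM, and CTSS was at 21.7 to 26.7 RPKM in MDA-MB-231 and 0.363 to 0.565 RPKM in T47D.

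GFOGER was compared with IKVAV within each cell line, which asks whether expression differs between the collagen and the laminin mimic. The samples held no gel without a peptide, so which mimic a difference came from cannot be told. In MDA-MB-231, CST3 was 2.14-fold lower with GFOGER and passed both thresholds (adjusted p below 0.05 and a change over 2-fold), so 1 of the 9 genes was called, against a background of 6.46% of the 14090 genes tested that were called lower. CTSD, CTSB, CTSA and CTSZ were also lower by smaller folds with adjusted p below 0.05, so that by adjusted p alone 5 of 9 were lower and 0 higher, where the backgrounds were 21.4% lower and 21.4% higher. In 5 of the 9 the libraries with GFOGER all lay below those with IKVAV, against 30.6% of all genes tested. The median log2 fold change of the 9 was −0.45 and that of all genes tested was 0.0039. CTSC, CTSH, CTSS and CTSK did not pass.

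CTSD, which degrades proteins in the lysosome and can activate other cathepsins, was at 1761, 1708 and 2178 cpm in MDA-MB-231 with GFOGER and at 3629 and 3572 cpm with IKVAV. The conditions did not overlap, and replicate 3 with GFOGER was the closest to the IKVAV libraries. The log2 fold change was −0.94 (SE 0.0878, edgeR adjusted p = 3.58e-07), a 1.93-fold difference, and was −1.06 without replicate 3 of GFOGER, which put CTSD past the 2-fold threshold as well. CTSA, which removes C-terminal residues from peptides and also shields neuraminidase (NEU1) and beta-galactosidase (GLB1) from degradation in a shared complex, was at 304, 304 and 373 cpm with GFOGER and at 505 and 504 cpm with IKVAV. It fell by 0.63 on the log2 scale (SE 0.0933, edgeR adjusted p = 4.88e-05), and by 0.73 without replicate 3. Its partner GLB1 was at 122 to 130 cpm with GFOGER and 143 to 155 cpm with IKVAV (log2 fold change −0.25, SE 0.0916, edgeR adjusted p = 0.0336). NEU1, at 212 to 250 and 249 to 266 cpm, had a log2 fold change of −0.19 (SE 0.0920, edgeR adjusted p = 0.103).

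Among the cysteine cathepsins, CTSB and CTSZ, the most abundant of the 6, were lower with GFOGER. CTSB, which cuts within proteins and also trims them from the C terminus, was at 382, 374 and 420 cpm with GFOGER and at 684 and 642 cpm with IKVAV. Its log2 fold change was −0.77 (SE 0.0823, edgeR adjusted p = 1.84e-06). CTSZ, a carboxypeptidase that removes single residues, was at 331, 340 and 393 cpm with GFOGER and at 484 and 476 cpm with IKVAV. The conditions were separate for both genes, and the difference of CTSZ was the smallest that passed (−0.45, SE 0.0882, edgeR adjusted p = 0.000717). Without replicate 3 of GFOGER these became −0.81 for CTSB and −0.52 for CTSZ.

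The other 4 cysteine cathepsins gave no difference that passed, with libraries of the peptides overlapping in each. CTSC (dipeptidyl peptidase I, which activates serine proteases of granules) was at 110, 115 and 102 cpm with GFOGER and 103 and 98.7 cpm with IKVAV. Its log2 fold change was 0.10 (95% interval −0.11 to 0.31), and its edgeR adjusted p of 0.427 became 0.0295, at a log2 fold change of 0.16, without replicate 3 of GFOGER. CTSS, which cleaves the invariant chain in antigen presentation and stays active near neutral pH, was at 110, 89.1 and 90.3 cpm with GFOGER and 107 and 98.6 cpm with IKVAV. The interval of its log2 fold change ran from −0.33 to 0.13 (edgeR adjusted p = 0.501), so a change of the size measured for CST3 lay outside it. CTSH, mainly an aminopeptidase, was at 34.0, 38.8 and 38.6 cpm with GFOGER and 45.4 and 34.1 cpm with IKVAV, and the libraries of the peptides overlapped (interval −0.39 to 0.18, edgeR adjusted p = 0.564). CTSK, a collagen-degrading cathepsin best known from osteoclasts, had 40 to 68 counts per library in MDA-MB-231 (3.89, 2.47 and 2.51 cpm with GFOGER, 3.96 and 3.44 cpm with IKVAV). At this depth its interval was the widest of the 9, from −0.91 to 0.26 (edgeR adjusted p = 0.365), and changes within this interval were not excluded.

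CST3, the secreted inhibitor, was at 278, 295 and 302 cpm with GFOGER and at 608 and 635 cpm with IKVAV. It was the gene among the 9 with the largest log2 fold change (−1.10, SE 0.0815, edgeR adjusted p = 2.44e-08), and replicate 3 of GFOGER lay with the other libraries of its condition (−1.12 without it). The ratio of the summed RPKM of the 6 cysteine cathepsins to that of CST3 was 1.01 to 1.11 in the MDA-MB-231 libraries with GFOGER and 0.659 and 0.723 with IKVAV. This ratio is a description of RNA levels and was not tested. The sums of the 6 cysteine cathepsins were 383 to 430 RPKM with GFOGER and 540 and 567 RPKM with IKVAV. CTSZ made up a mean of 59.2% of this sum with GFOGER and 57.9% with IKVAV, so the ratio mostly sets CTSZ against CST3. The ratio depends on the genes summed. It leaves out cysteine cathepsins outside the 9 genes, such as CTSL (means of 101 RPKM with GFOGER and 72.6 RPKM with IKVAV). It also leaves out other cystatins. CST3 summed with CSTB, CST1, CST2 and CST4 came to means of 1376 RPKM with GFOGER and 2518 RPKM with IKVAV.

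In T47D, none of the 9 genes was called between the peptides (0 of 9, against 0.022% of 13639 genes tested by both thresholds and 0.044% by adjusted p alone). Of the 9, 1, CTSA, had an unadjusted p below 0.05 in edgeR, near the share of 11.2% of all genes tested. CTSA was at 436, 441 and 394 cpm with GFOGER and at 331, 322 and 262 cpm with IKVAV, so it was higher with GFOGER in every library, the reverse of MDA-MB-231. Its log2 fold change was 0.48 (SE 0.0942, edgeR adjusted p = 0.0866). Without replicate 3 of IKVAV, the lowest library, it was 0.38 with an edgeR adjusted p of 0.00303. With the RPKM split as a term, where only this library stands for IKVAV, it was 0.70. Over the alternatives besides that split the adjusted p ranged from 0.00146 (DESeq2) to 0.531. NEU1 had a log2 fold change of 0.45 (SE 0.116, edgeR adjusted p = 0.200) and GLB1 one of 0.23 (SE 0.0821, edgeR adjusted p = 0.332).

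The libraries of the peptides did not overlap in 3 of the 9 genes in T47D (CTSA, CTSB and CTSS, each above with GFOGER), where 8.31% of all genes tested were above without overlap. CTSB was at 344, 343 and 318 cpm with GFOGER and at 310, 312 and 281 cpm with IKVAV (log2 fold change 0.15, SE 0.0762, edgeR adjusted p = 0.471). CTSS had only 22 to 39 counts per library in T47D. CTSD was at 3008, 3246 and 2779 cpm with GFOGER and at 3201, 3139 and 2599 cpm with IKVAV. CST3 was at 124, 132 and 110 cpm with GFOGER and at 118, 102 and 142 cpm with IKVAV. The libraries of the peptides were interspersed for both, and the 95% intervals of −0.19 to 0.22 for CTSD and −0.23 to 0.26 for CST3 left out a change of the size measured in MDA-MB-231. The remaining 4 genes had log2 fold changes between −0.04 (CTSZ) and 0.18 (CTSH), with edgeR adjusted p from 0.617 to 0.927. The ratio of summed cysteine cathepsins to CST3 was 1.14 to 1.27 with GFOGER and 0.962 to 1.35 with IKVAV.

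**Figure D2:**
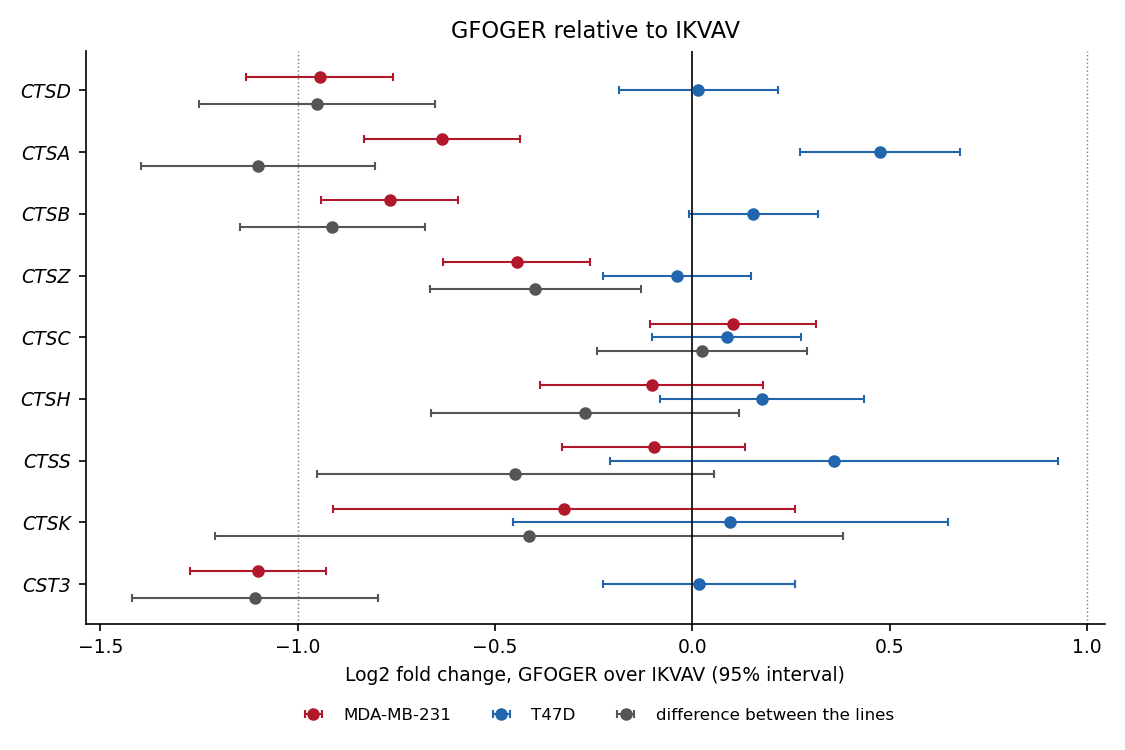
Log2 fold change of GFOGER over IKVAV with 95% intervals for the 9 genes in MDA-MB-231 and T47D, and the difference between the cell lines, with dotted lines at 2-fold. In MDA-MB-231 the intervals of CTSD, CTSA, CTSB, CTSZ and CST3 lay below 0, while in T47D those of all but CTSA included 0.

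The interaction of cell line and peptide tested whether the response differed between the lines. It was called for 2 of the 9 genes, CST3 (−1.11, SE 0.149, edgeR adjusted p = 3.64e-05) and CTSA (−1.10, SE 0.142, edgeR adjusted p = 2.45e-05), against a background of 4.18% of 15310 genes called with a negative interaction. A negative value means that GFOGER, relative to IKVAV, was lower in MDA-MB-231 than in T47D. CTSD (−0.95, SE 0.143, edgeR adjusted p = 0.000113), CTSB (−0.91, SE 0.112, edgeR adjusted p = 1.33e-05) and CTSZ (−0.40, SE 0.128, edgeR adjusted p = 0.0320) also had an adjusted p below 0.05, which made 5 of 9 negative by adjusted p alone, where the background was 10.2%. CTSZ passed narrowly, and its adjusted p was above 0.05 in 9 of the alternatives. Without both libraries that stood apart, CST3 was at −1.27, CTSA at −1.11, CTSD at −0.98, CTSB at −0.92 and CTSZ at −0.47, and 2 were still called. The interaction did not pass for CTSC (0.02), CTSH (−0.27), CTSK (−0.41) or CTSS (−0.45). The partners of CTSA, NEU1 (−0.64, SE 0.162, edgeR adjusted p = 0.00833) and GLB1 (−0.48, SE 0.121, edgeR adjusted p = 0.00827), had negative interactions of a smaller size.

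**Figure D3:**
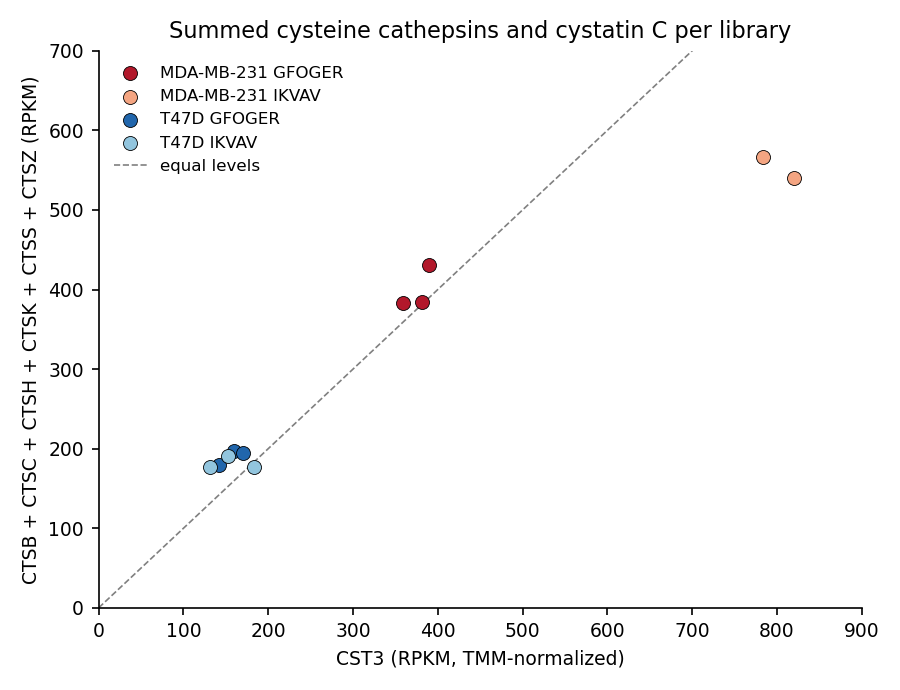
Summed RPKM of the 6 cysteine cathepsins against the RPKM of CST3 in each library, with a dashed line at equal levels. The 2 MDA-MB-231 libraries with IKVAV lay below the line (ratios 0.659 and 0.723), while the 3 with GFOGER lay close above it (1.01 to 1.11). CTSL and the cystatins besides CST3 are not included, so the position relative to the line holds for these genes only.

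The cell lines were compared within each peptide. The comparison with GFOGER coincided with the split of implied RPKM totals and cannot be told apart from it. With GFOGER, 3 of the 9 genes were called higher in MDA-MB-231, CTSS, CTSZ and CST3, against 23.7% of 15310 genes called higher. By adjusted p alone 6 were higher and 2, CTSD and CTSA, lower, where the backgrounds were 40.1% and 39.5%. With IKVAV the same 3 genes and CTSB were called higher, against 23.6%, and by adjusted p alone 9 of 9 were higher, against 38.3%. The medians of the 9 were 0.59 with GFOGER and 0.90 with IKVAV, and those of all genes tested were 0.0061 and −0.02. These contrasts and the interaction rest on the same libraries.

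CTSS gave the largest difference between the lines. It was at 89.1 to 110 cpm in the 5 libraries of MDA-MB-231 and at 1.49 to 2.32 cpm in the 6 of T47D, a log2 fold change of 5.60 with GFOGER (SE 0.141, edgeR adjusted p = 3.65e-18) and 6.05 with IKVAV (SE 0.153, edgeR adjusted p = 5.78e-18). CTSS is typical of antigen-presenting cells, so a list of macrophage and leukocyte markers (PTPRC, CD14, CSF1R, CD163, LYZ and TYROBP) was read beside it. The 6 summed to 14.0 to 16.8 cpm in MDA-MB-231 with GFOGER, 18.1 to 19.7 cpm with IKVAV and 0.119 to 0.653 cpm in T47D. TYROBP had 0 counts in every library and PTPRC at most 10 counts, while CD14 reached 11.3 cpm in MDA-MB-231. These summed levels were higher in MDA-MB-231 as CTSS was, and their part in the difference was not tested.

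CTSZ was at 331 to 484 cpm in MDA-MB-231 and at 125, 122 and 114 cpm in T47D with GFOGER and 136, 113 and 122 cpm with IKVAV. Its log2 fold change between the lines was 1.56 with GFOGER (SE 0.0874, edgeR adjusted p = 1.62e-12) and 1.96 with IKVAV (SE 0.0946, edgeR adjusted p = 1.86e-13). The corresponding values of CST3 were 1.26 (SE 0.101, edgeR adjusted p = 5.82e-10) and 2.36 (SE 0.111, edgeR adjusted p = 1.15e-13). For CTSZ and CST3 every library of MDA-MB-231 lay above every library of T47D with the same peptide. Libraries of the lines were separate in 8 of the 9 genes with GFOGER, against 81% of all genes tested, and in 9 of 9 with IKVAV, against 83.7%.

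CTSD and CTSA changed sides between the peptides. CTSD was lower in MDA-MB-231 than in T47D with GFOGER (−0.68, SE 0.0960, edgeR adjusted p = 2.22e-06) and higher with IKVAV (0.27, SE 0.106, edgeR adjusted p = 0.0252). The second of these had an edgeR adjusted p of 0.0965 without replicate 3 of T47D with IKVAV, and 0.0108, at a log2 fold change of 0.19, without both libraries that stood apart. It also had an adjusted p above 0.05 with library size alone and on omission of either IKVAV library of MDA-MB-231. CTSA was likewise lower in MDA-MB-231 with GFOGER (−0.37, SE 0.0953, edgeR adjusted p = 0.00137) and higher with IKVAV (0.73, SE 0.105, edgeR adjusted p = 3.31e-06). CTSB was higher in MDA-MB-231 by 0.23 with GFOGER (SE 0.0752, edgeR adjusted p = 0.00988), which did not hold with library size alone (adjusted p = 0.121), with the RPKM split as a term (0.15) or without T47D with GFOGER replicate 3 (0.0522). With IKVAV it was higher by 1.14 (SE 0.0828, edgeR adjusted p = 1.37e-10).

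Of the lower cysteine cathepsins, CTSC was at 60.1, 57.0 and 62.2 cpm in T47D with GFOGER and at 55.5, 53.5 and 59.8 cpm with IKVAV. It was higher in MDA-MB-231 by 0.86 and 0.84 on the log2 scale (SE 0.0854 and 0.0943, edgeR adjusted p = 1.39e-08 and 1.06e-07). Its libraries overlapped between the peptides in both lines. CTSH, at 26.2, 26.7 and 21.1 cpm in T47D with GFOGER and 20.3, 21.97 and 23.1 cpm with IKVAV, was higher in MDA-MB-231 by 0.59 (SE 0.125, edgeR adjusted p = 0.000225) and 0.86 (SE 0.138, edgeR adjusted p = 1.16e-05). CTSK had 29 to 43 counts per library in T47D. It differed by 0.48 with GFOGER (SE 0.255, edgeR adjusted p = 0.0887, and 0.0493 without both libraries that stood apart) and by 0.90 with IKVAV (SE 0.281, edgeR adjusted p = 0.00695).

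**Figure D4:**
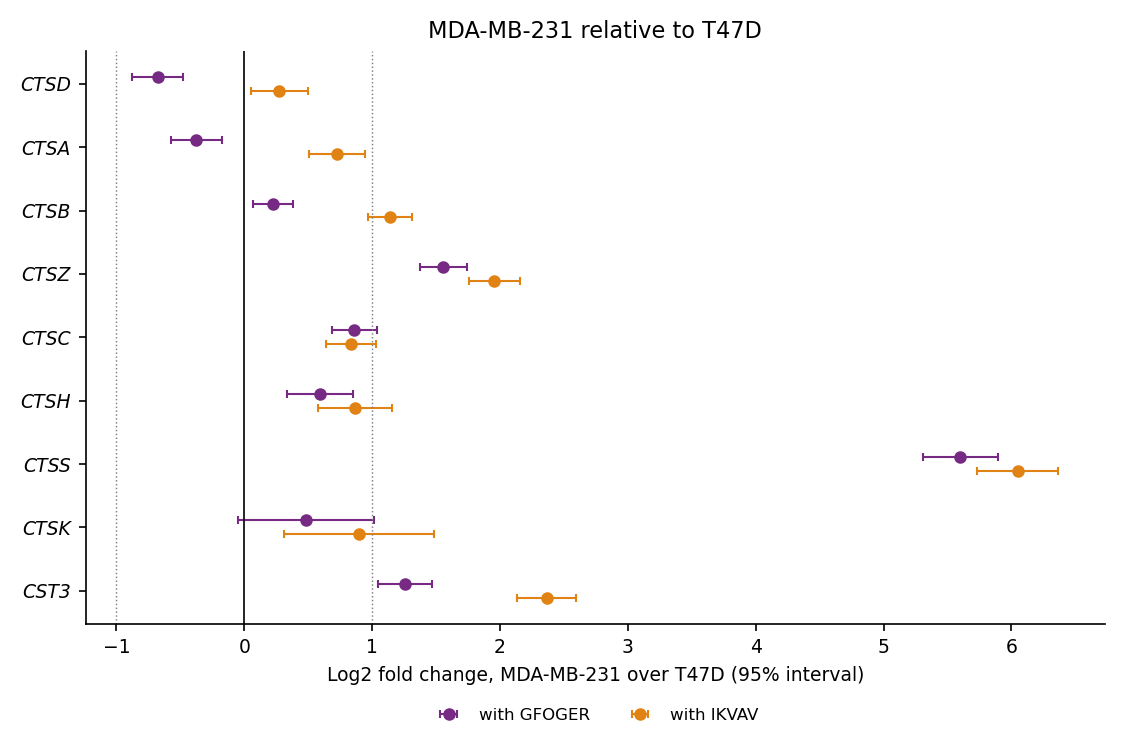
Log2 fold change of MDA-MB-231 over T47D with 95% intervals, with GFOGER and with IKVAV, with dotted lines at 2-fold. CTSS lay at 5.60 and 6.05, and CTSD and CTSA lay below 0 with GFOGER and above 0 with IKVAV.

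Other lysosomal genes and cystatins were read from 7 lists. Of 10 other lysosomal proteases tested in MDA-MB-231, 5 were lower and 1 higher with GFOGER by adjusted p alone (median log2 fold change −0.22), and 2 were called lower. The backgrounds are those given above, 21.4% of all genes in each direction by adjusted p alone and 6.46% called lower. Those called were the papain-family cathepsins CTSF (35.8 to 45.3 against 108 to 110 cpm, log2 fold change −1.44, SE 0.112, edgeR adjusted p = 4.37e-08) and CTSO (16.4 to 19.4 against 35.2 to 37.9 cpm, −1.03, SE 0.129, edgeR adjusted p = 9.64e-06). CTSL, listed as CTSL1 and an endopeptidase of the same family, went the other way, from 117 and 132 cpm with IKVAV to 166 to 178 cpm with GFOGER (0.46, SE 0.0949, edgeR adjusted p = 0.000912). CTSV, listed as CTSL2 (−0.12, SE 0.256), and LGMN, the asparaginyl endopeptidase that processes other cathepsins (0.07, SE 0.100), did not pass, with edgeR adjusted p of 0.737 and 0.597. CTSL was higher in MDA-MB-231 than in T47D by 3.74 with GFOGER and 3.36 with IKVAV, and CTSV had log2 fold changes between the lines of −2.82 and −2.58. LGMN was higher in MDA-MB-231 by 0.80 and 0.81.

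Of 7 cystatins tested besides CST3 in MDA-MB-231, 5 were lower and 0 higher with GFOGER by adjusted p alone (median −0.76). CST5, CST4 and CST2 were called lower. The backgrounds are again 21.4% of all genes in each direction and 6.46% called lower. CST4 was at 60.8 to 81.7 cpm with GFOGER and 195 to 214 cpm with IKVAV (−1.56, SE 0.112, edgeR adjusted p = 1.85e-08), and CST2 at 34.8 to 53.3 and 101 to 102 cpm (−1.26, SE 0.137, edgeR adjusted p = 2.14e-06). CST5 had 1 to 5 counts with GFOGER and 18 and 19 with IKVAV. CST1, named after its values were seen, was at means of 495 cpm with GFOGER (SD 75.1, n = 3) and 831 cpm with IKVAV (SD 23.8, n = 2) (−0.76, SE 0.0989, edgeR adjusted p = 1.54e-05). CST1, CST2 and CST4 encode salivary cystatins of nearly the same sequence, so their separate counts are uncertain. The cytosolic inhibitor CSTB was at 177 to 183 and 177 to 198 cpm (−0.06, SE 0.0902, edgeR adjusted p = 0.619), CST6 at 5.50 to 6.06 and 3.76 to 4.34 cpm (0.50, SE 0.215, edgeR adjusted p = 0.0700), and CSTA had 0 counts in MDA-MB-231 and 8 to 16 counts per library in T47D.

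Of 31 lysosomal hydrolases and their activators, 20 were lower and 4 higher with GFOGER in MDA-MB-231 by adjusted p alone. The background was 21.4% of all genes in each direction. The median log2 fold change of the 31 was −0.37. Those called lower were GAA, which degrades glycogen (30.4 to 44.3 against 112 and 113 cpm, −1.64, SE 0.130, edgeR adjusted p = 5.45e-08), FUCA1, a fucosidase (86.1 to 107 against 285 and 313 cpm, −1.61, SE 0.104, edgeR adjusted p = 5.23e-09), and IDUA, an iduronidase (15.4 to 22.7 against 36.1 and 46.8 cpm, −1.16, SE 0.157, edgeR adjusted p = 2.17e-05). Of 12 membrane proteins, 5 were lower and 1 higher (median −0.22). Of 16 subunits and accessory proteins of the vacuolar ATPase, which acidifies the lysosome, 2 were lower and 1 higher (median −0.11). Of 9 genes of mannose 6-phosphate and sortilin targeting, 2 were lower and 1 higher (median −0.18). The share lower in the vacuolar ATPase list was below the background of 21.4%, and that in the targeting list was near it. Among 3 MiT/TFE factors, which regulate lysosomal genes, TFEB was called lower (2.23 to 4.50 against 10.5 and 12.4 cpm, −1.73, SE 0.231, edgeR adjusted p = 1.91e-05) with 36 to 79 counts per library with GFOGER, 1 was higher by adjusted p alone, and TFE3, the most abundant of the 3, had 0.03 (SE 0.105). In T47D, 0 of the 83 genes tested from the 7 lists had an adjusted p below 0.05 in edgeR, and list medians ran from −0.05 to 0.28. In 19 of the 83 (22.9%) the unadjusted p was below 0.05, as in 11.2% of all genes tested. With DESeq2, 3 of the 83 had an adjusted p below 0.05, each higher with GFOGER, namely NEU1 and, named after their values were seen, TPP1 (tripeptidyl peptidase) and NPC2 (a cholesterol-binding lysosomal protein), against 0.572% of all genes.

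**Figure D5:**
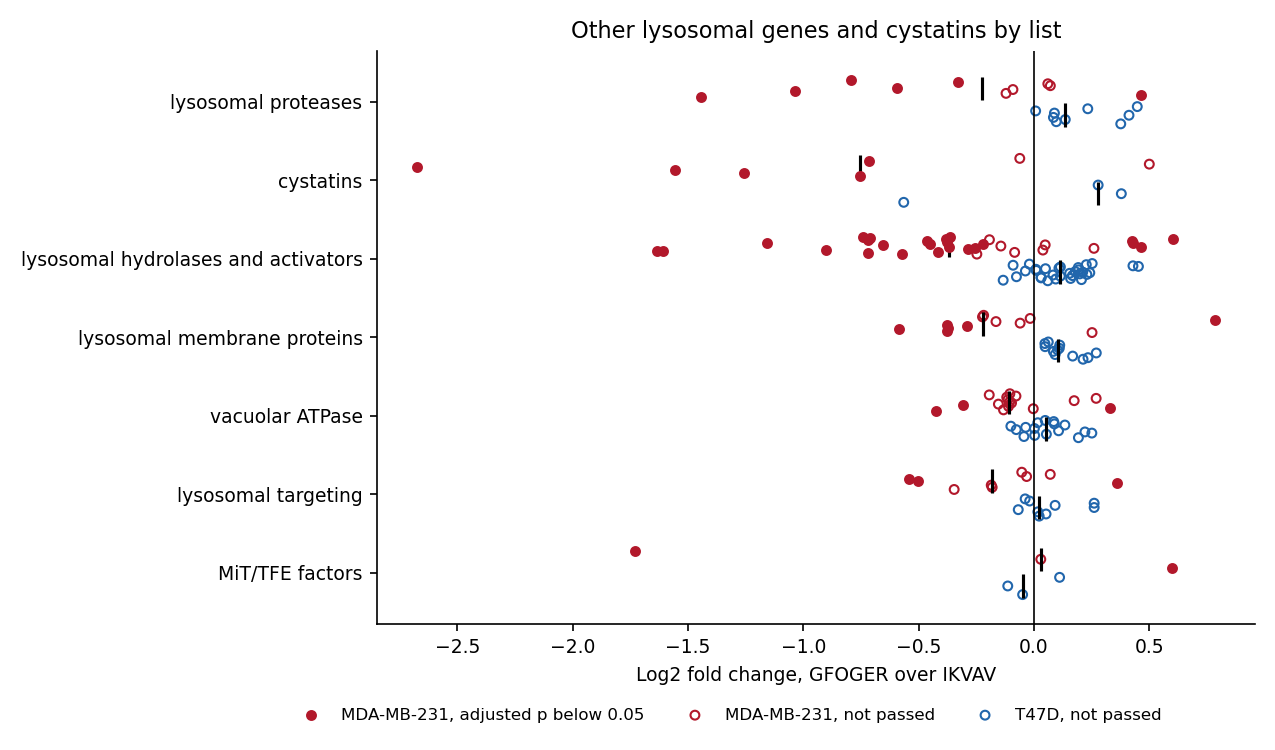
Log2 fold change of GFOGER over IKVAV for the tested genes of the 7 lists in MDA-MB-231 (upper rows) and T47D (lower rows), with filled points for an adjusted p below 0.05 and black bars at list medians. In MDA-MB-231 20 of 31 hydrolases and activators were lower and 4 higher by adjusted p alone, against 21.4% of all genes in each direction. In T47D no point is filled.

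For each member, the gene with the most similar pattern over the 11 libraries was found by the root mean square difference of centred log2 cpm, as a description without a test. It was ARSA for CTSA (0.143, against a median of 0.523 over 11137 genes), NFKBIA for CTSB (0.0974), RHOA for CTSC (0.0435), PODXL2 for CTSD (0.0670), PQLC1 for CTSH (0.0938), ACSL4 for CTSS (0.229), SIK3 for CTSZ (0.0809) and FRS3 for CST3 (0.145). As the smallest of these differences, each value lies below its median by construction. The medians differed between members. They were 0.553 to 0.584 for CTSB, CTSC, CTSD and CTSH, 0.948 for CTSZ, 1.01 for CST3 and 2.88 for CTSS. CTSK was below the minimum level for this measure. The 11 libraries come from 2 cell lines, and the difference between the lines was left in this measure.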

How the data were processed

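Per the labels, stranded poly(A) libraries were made from MDA-MB-231 and T47D cells on day 3. The authors' pipeline ran FastQC, then TopHat2 2.1.0 against hg19 and HTSeq 0.6.1p1 for counts per gene. The submitters' processing notes also name Trim Galore 0.4.4, SAMtools 1.4, bedtools 2.17 and edgeR 3.16.5. Which annotation and strand setting HTSeq used is not given in the sources used here. The deposited table holds raw counts and RPKM values, of which the authors' RPKM served only for the library totals they imply. Of 24656 entries, 1288 that repeat a symbol were left out, 6 of them with a count and 0 of them members.

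Counts were analysed in R 4.3.3 with edgeR 4.0.16 (TMM, filterByExpr, quasi-likelihood test, Benjamini-Hochberg adjustment over all genes tested). Calls needed an adjusted p below 0.05 together with a log2 fold change above 1 in size. The peptides were compared in separate fits of MDA-MB-231 and T47D libraries, and the cell lines and the interaction in one fit of all 4 conditions. The SE is the log2 fold change divided by the square root of F. RPKM values in the text were computed from the counts, TMM library sizes and the table's gene lengths. Log2 cpm had a prior count of 2. The fits were tested on simulated data. Intervals and limits from counts cover counting error only where they rest on single libraries.

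Same-numbered replicates did not deviate together (correlations across genes −0.058 to 0.0181) and were not paired. Alternatives were DESeq2 1.42.0, other size factors, no filter, the replicate block, the split of implied RPKM totals as a term, all 4 groups in one fit, adjusted p alone and omission of each library, and, chosen after seeing the data, omission of both libraries that stood apart.

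The members and the gene lists (lysosomal proteases, cystatins, hydrolases and activators, membrane proteins, vacuolar ATPase, targeting, MiT/TFE factors, and luminal, mesenchymal and macrophage markers) were chosen with earlier results of these data known. Named genes were the members, NEU1, GLB1, LGMN, CTSL, CTSV, CSTA, CSTB, CST6, up to 4 genes per list called between the peptides, the nearest gene to each member, and VIM, CDH1 and ESR1. The luminal list summed to 524 to 637 cpm in MDA-MB-231 and 5109 to 5877 cpm in T47D, and the mesenchymal list to 2369 to 4343 and 6.49 to 8.54 cpm. Promoters came from RefSeq (GRCh38.p14). CTSB, CTSK and CTSS had no promoter entry.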

Additional observations from a re-analysis of the deposited data

Results flagged for a closer look

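For 5 of the 9 genes the response to the peptides differed between the cell lines in the interaction test of edgeR (adjusted p below 0.05). All were negative, as were 10.2% of all genes tested by the same rule. CTSZ passed narrowly and was above this threshold in several alternatives, as given above. The difference, as the log2 fold change of GFOGER over IKVAV in MDA-MB-231 minus that in T47D, was −1.11 for CST3, −1.10 for CTSA, −0.95 for CTSD, −0.91 for CTSB and −0.40 for CTSZ. CTSA was the only one of the 5 with a log2 fold change over 0.2 in T47D (0.48). The conditions held 2 or 3 libraries, too few for a check of single outlying values.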

How the results depend on the processing

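Of the members' fold changes under the alternatives, 705 kept their direction and their call by the joint rule of adjusted p and fold, 7 became called, 1 was no longer called and 16 changed sign. Some of the 705 crossed the adjusted p threshold alone, as given for CTSA, CTSB, CTSC, CTSD, CTSK and CTSZ here and above. The cause was not tested for any of these. Of all genes tested between the peptides in MDA-MB-231, 21.4% passed in each direction by adjusted p alone. Between the lines, 40.1% were higher in MDA-MB-231 and 39.5% lower with GFOGER, and 38.3% were higher with IKVAV. For the interaction 10.2% were negative. Beside these shares, members called by adjusted p alone numbered 5 instead of 1 in MDA-MB-231 between the peptides. They numbered 8 instead of 3 and 9 instead of 4 between the lines with GFOGER and IKVAV, and 5 instead of 2 for the interaction. With the replicate block, 2 were called in MDA-MB-231 (CTSD at −1.05, and CTSC had an adjusted p of 0.0218), where the fit had only 1 residual degree of freedom, and omission of single libraries gave 1 to 2. In T47D the replicate block gave CTSA an adjusted p of 0.0285, for the interaction it gave CTSZ one of 0.0581, and with IKVAV it gave CTSD one of 0.0536 between the lines. Replicate numbers did not pair the libraries. CTSA in T47D also passed by adjusted p with DESeq2 (0.00146), without a filter (0.0023) and with all 4 groups in one fit (0.043). In the interaction, CTSD was also called without replicate 3 of MDA-MB-231 with GFOGER (−1.07), replicate 3 of T47D with GFOGER (−1.005) or replicate 1 of T47D with IKVAV (−1.02), and with the RPKM split as a term (−1.14). CTSH was called between the lines with IKVAV (1.06) without replicate 2 of MDA-MB-231. Signs changed for values near 0 that did not pass. With the RPKM split as a term, these were CTSH in MDA-MB-231 (0.11), CTSK (−0.011) and CST3 (−0.22) in T47D, and CTSH in the interaction (0.039), where CST3 also fell short of 2-fold (−0.91). With library size alone, CTSC in the interaction was at −0.013. With single libraries left out, CTSH in MDA-MB-231 ran from −0.29 to 0.12, and in T47D CTSD ran from −0.073 to 0.072, CTSK from −0.064 to 0.18, CTSZ from −0.10 to 0.039 and CST3 from −0.094 to 0.15, while CTSC in the interaction ran from −0.032 to 0.069. Depth limited CTSK in both lines and CTSS in T47D, each under 70 counts per library.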
